A study of Mus musculus with 2 samples.

Results

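The peaks described here are the H3K36me2 peaks whose nearest edge lay between 1 and 3 kb from the transcription start site (TSS) of their gene, the flank of the promoter. They were taken from the annotation of 2 CUT&Tag peak lists of mouse colon, as the rows that the annotation placed in its 1 to 2 kb or its 2 to 3 kb promoter class, and the sign of the distance to the TSS separated upstream from downstream peaks. The list of the *Nsd2* fl/fl library held 1779 such peaks among 19976, and that of the *Nsd2* ΔIE library 2193 among 23518, which made 3972 of 43494 peaks in all. CUT&Tag cuts chromatin with a transposase tethered to an antibody, so that a peak marks a stretch rich in the bound histone mark.

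Both libraries came from whole colon of C57BL/6J mice fed HFCD, a high-fat and high-cholesterol diet. *Nsd2* fl/fl mice carry floxed *Nsd2* alleles, and in *Nsd2* ΔIE mice Villin-Cre deletes *Nsd2* in the intestinal epithelium. Male littermates were aged 7 to 8 weeks when the diet began, and the time on the diet is given as 16 weeks in the deposited design and as 18 weeks in the methods of the study. Each genotype had 1 library, so no difference between genotypes could be tested, and neither the number of animals behind a library nor whether the control mice carried Cre is stated in the sources used here. Villin-Cre does not reach the immune, stromal, muscle and nerve cells of the colon wall, and in whole tissue fewer cells that carry the mark and less mark per cell cannot be told apart. The genotypes are called fl/fl and ΔIE from here on.

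H3K36me2 is the dimethylated form of lysine 36 of histone H3. NSD2 writes it, together with NSD1, NSD3 and ASH1L, whereas SETD2 adds the third methyl group over the bodies of transcribed genes. The mark typically spreads as broad domains over intergenic sequence and the first part of gene bodies, and the nucleosomes next to an active TSS carry H3K4me3 instead. The flank of a promoter lies between these regions.

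The 2 lists differed as wholes, which bears on every value below. The weakest fl/fl peak had a summed signal of 21783 and the weakest ΔIE peak 16571, the median peak of the lists was 4643 bp and 3426 bp wide, and no correction for depth is stated. Among the flank peaks, 24.5% (95% Wilson interval, 22.6 to 26.6) of those of fl/fl and 24.2% (22.5 to 26.1) of those of ΔIE had a summed signal within 10% of the weakest peak of their list. Of the marker genes fixed for the cells of the colon wall, 6 of 15 epithelial, 4 of 15 immune and 10 of 18 stromal, muscle and nerve genes had a peak of any class in fl/fl, and 9, 5 and 10 in ΔIE. A peak of this mark is not a level of expression, so the lists cannot tell the tissue by these genes. Intervals given here cover counting within a list only.

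Over all genes, the promoters beside the flank peaks differed in base composition between the downstream and the upstream side. Among protein-coding genes alone, the intervals of the 2 sides overlapped, as given below. The following sequences are the 250 bases before the start of 5 genes, each from RefSeq on build GRCm38.p6 and read 5′ to 3′ on the gene's own strand, with every CG dinucleotide in capitals. The first 3 belong to genes from the lists described below that had a downstream flank peak at the same transcript in both libraries, and the last 2 belong to intestinal genes with a flank peak in fl/fl, downstream for *Fabp1* and upstream for *Isx*. All 5 were chosen from the listed genes whose length in the table equals that of the transcript beside the peak. *Mapk8ip2*, a scaffold protein of the JNK cascade, lies on the plus strand with this window at chr15:89453661-89453910. *Notch1*, a receptor that keeps intestinal progenitors from the secretory fate, lies on the minus strand with its window at chr2:26503823-26504072. *Myd88*, the adaptor of most Toll-like receptors, lies on the minus strand with its window at chr9:119340019-119340268. *Fabp1*, a cytosolic carrier of fatty acids, lies on the plus strand with its window at chr6:71199629-71199878. *Isx*, an intestinal homeobox factor that represses vitamin A uptake, lies on the plus strand with its window at chr8:74872924-74873173.
Mapk8ip2: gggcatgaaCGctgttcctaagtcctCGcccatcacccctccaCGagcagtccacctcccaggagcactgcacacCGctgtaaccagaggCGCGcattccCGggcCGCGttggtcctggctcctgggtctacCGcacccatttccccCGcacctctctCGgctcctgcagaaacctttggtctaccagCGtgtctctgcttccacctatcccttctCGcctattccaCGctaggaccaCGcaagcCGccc
Notch1: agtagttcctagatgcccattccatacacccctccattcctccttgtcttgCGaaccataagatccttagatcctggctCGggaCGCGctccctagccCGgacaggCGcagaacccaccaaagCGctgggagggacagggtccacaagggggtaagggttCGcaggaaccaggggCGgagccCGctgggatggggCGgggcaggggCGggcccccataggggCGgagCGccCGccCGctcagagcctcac
Myd88: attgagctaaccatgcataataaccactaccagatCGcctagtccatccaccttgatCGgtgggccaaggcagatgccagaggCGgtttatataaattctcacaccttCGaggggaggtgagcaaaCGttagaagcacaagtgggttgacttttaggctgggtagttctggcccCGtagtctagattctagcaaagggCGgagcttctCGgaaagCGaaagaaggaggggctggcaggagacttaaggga
Fabp1: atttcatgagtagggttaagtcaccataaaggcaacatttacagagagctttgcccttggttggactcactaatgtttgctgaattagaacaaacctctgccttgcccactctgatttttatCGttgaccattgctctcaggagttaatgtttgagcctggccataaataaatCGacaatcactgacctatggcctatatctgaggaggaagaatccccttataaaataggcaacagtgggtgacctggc
Isx: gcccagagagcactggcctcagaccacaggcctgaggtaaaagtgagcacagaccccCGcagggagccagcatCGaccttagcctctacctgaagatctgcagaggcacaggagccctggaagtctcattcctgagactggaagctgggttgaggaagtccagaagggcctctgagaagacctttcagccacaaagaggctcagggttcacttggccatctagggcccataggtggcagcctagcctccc
The capitals are dense in *Mapk8ip2* and *Notch1*, with 17 and 16 CG dinucleotides, and thinner in *Myd88* with 9, whereas *Fabp1* and *Isx* hold 2 each. Over the full window of 300 bases, which ends 50 bases past the start, the ratio of observed to expected CG was 0.78 in *Mapk8ip2*, 0.66 in *Notch1* and 0.61 in *Myd88*, against 0.20 in *Fabp1* and 0.078 in *Isx*. The 5 genes do not stand for their sides. *Insig1* and *Cldn1*, with upstream flank peaks in fl/fl, had 0.99 and 0.64. The sequences of the peaks themselves were not used here, since no genome of the build of the lists was at hand, and the build of the table differs from that of the lists. All peak positions below are as the lists print them, on a build that the sources used here do not settle, and they cannot be set against the promoter positions above.

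A promoter was called CpG-rich where its 300 bases held over 50% G and C and a ratio of observed to expected CG over 0.6. Only genes with a single entry in the promoter table were used, and 33.2% (32.6 to 33.8) of all 22862 such genes were CpG-rich. Among genes with a downstream flank peak, 287 of 565 were CpG-rich in fl/fl, or 50.8% (46.7 to 54.9), and 326 of 679 in ΔIE, or 48.0% (44.3 to 51.8). Among genes with an upstream flank peak, 137 of 353 were CpG-rich in fl/fl, or 38.8% (33.9 to 44.0), and 160 of 471 in ΔIE, or 34.0% (29.8 to 38.4). The downstream share was above the upstream share in both libraries, and the intervals did not overlap. Genes with a peak within 1 kb but not over the TSS gave 45.6% (41.6 to 49.6) and 45.7% (42.2 to 49.2) with both sides pooled, intervals that overlapped those of the downstream flank.

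**Figure D1:**
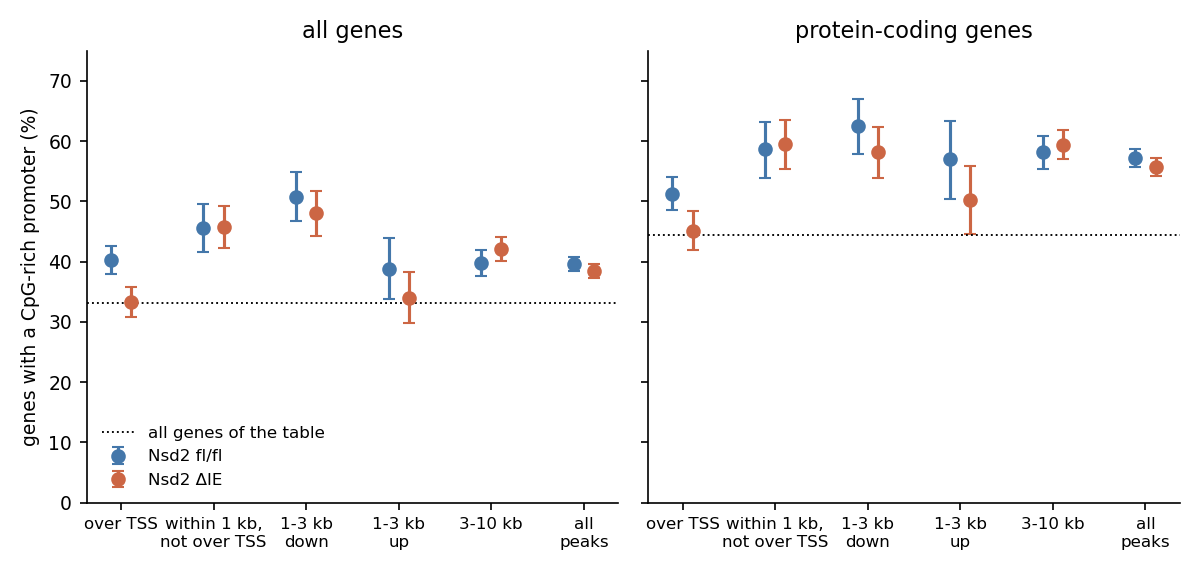
Share of genes with a CpG-rich promoter (%, y axis) by the position of their H3K36me2 peak relative to the TSS (x axis), for all genes (left) and protein-coding genes (right), with 95% Wilson intervals for each library and the share over the whole promoter table as a dotted line. Among all genes, the downstream flank, at 50.8% and 48.0%, lies above the upstream flank, while its interval overlaps that of peaks within 1 kb but not over the TSS in both libraries.

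The gap was smaller among protein-coding genes. Among protein-coding genes alone, the downstream share was 62.5% (57.8 to 66.9) in fl/fl and 58.2% (53.9 to 62.4) in ΔIE, and the upstream share 57.0% (50.4 to 63.4) and 50.2% (44.5 to 55.8), so that the downstream and upstream intervals overlapped in both libraries. The share over all protein-coding genes of the table was 44.4%. Genes whose TSS lay under a peak gave 51.3% (48.5 to 54.0) in fl/fl and 45.1% (42.0 to 48.3) in ΔIE. Protein-coding genes with a downstream flank peak thus had a CpG-rich promoter more often than those with a peak over the TSS in both libraries, as the plot of CpG-rich promoters by position shows. Protein-coding genes with a peak 3 to 10 kb from the TSS gave 58.1% (55.4 to 60.8) and 59.4% (57.0 to 61.8), and those with a peak within 1 kb but not over the TSS 58.6% (53.9 to 63.2) and 59.5% (55.3 to 63.5), all with intervals that overlapped those of the downstream flank. The listed genes kept to no side, with a CpG-rich promoter in 14 of 21 genes that had downstream and 12 of 21 that had upstream flank peaks.

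Flank peaks made 8.91% (8.52 to 9.31) of the fl/fl list and 9.32% (8.96 to 9.70) of the ΔIE list. The 1 to 2 kb class held 946 of the fl/fl and 1155 of the ΔIE flank peaks, and the 2 to 3 kb class 833 and 1038. By chromosome, the flank share among autosomes ran from 5.85% on chromosome 12 to 11.8% on chromosome 19 in fl/fl, and from 7.33% on chromosome 1 to 12.1% on chromosome 19 in ΔIE. Chromosome 19 thus had the highest share in both libraries.

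More flank peaks lay downstream than upstream of the TSS. In fl/fl 1069 of 1779 were downstream, or 60.1% (57.8 to 62.3), and in ΔIE 1291 of 2193, or 58.9% (56.8 to 60.9). The excess was not limited to the flank, since 59.7% and 59.9% of peaks 3 to 10 kb away were downstream too, and 61.5% and 57.5% of peaks within 1 kb that did not cover the TSS. Where the nearest transcript was a curated RefSeq one, the downstream share of flank peaks was 68.0% (64.6 to 71.2) in fl/fl and 68.5% (65.5 to 71.4) in ΔIE. On both sides the number of peaks fell with distance. In fl/fl the downstream counts were 711 within 1 kb, 572 from 1 to 2 kb, 497 from 2 to 3 kb and 427 from 3 to 4 kb, and the upstream counts 446, 374, 336 and 325. In ΔIE the downstream counts were 851, 674, 617 and 546, and the upstream counts 629, 481, 421 and 408. Counted per kb, the flank thus lay within a decline that began nearer the TSS and went on beyond 3 kb on both sides.

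**Figure D2:**
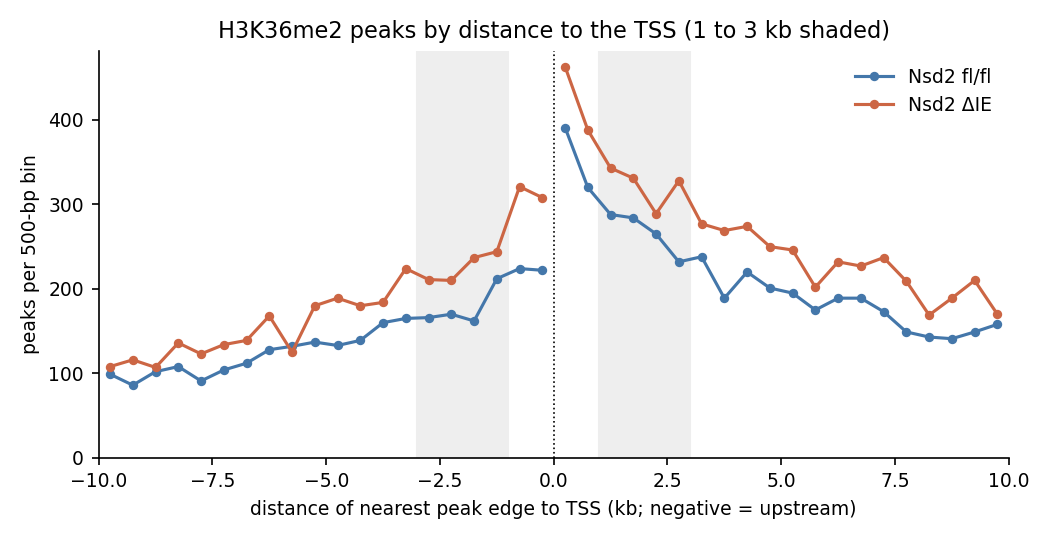
Number of H3K36me2 peaks per 500-bp bin (y axis) by the distance of the nearest peak edge to the TSS (x axis, kb, negative upstream), for each library, with the 1 to 3 kb flank shaded and peaks over the TSS left out. Counts fall away from the TSS on both sides and are higher downstream, with 1069 and 1291 downstream against 710 and 902 upstream flank peaks.

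Values at the borders of the flank were as close as the rule implies. In fl/fl the member nearest to the TSS lay at *Gm51555* with 1003 bp and the nearest peak left out at *Gm34037* with 999 bp, while the farthest member lay at *Ecel1* with 3000 bp. In ΔIE the nearest member lay at *Gm833* with 1004 bp, the nearest peak left out at *Ckb* with 1000 bp, the farthest member at *Mtfr1l* with 3000 bp and the next peak beyond at *Psma7* with 3002 bp.

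The distance in the lists is that of the near edge, and most of each peak lay farther out. The point of highest signal of a flank peak was at the median 4272.5 bp from the TSS in fl/fl and 3616 bp in ΔIE, and it fell within 3 kb in 18.6% (16.9 to 20.5) and 28.4% (26.5 to 30.3). The class name thus describes where these peaks begin rather than where their signal was highest. Of the downstream flank peaks, 66.8% (63.9 to 69.6) in fl/fl and 70.4% (67.9 to 72.8) in ΔIE lay wholly inside the transcript of their gene, and 12.9% and 11.2% began past its end, at short genes. Of the upstream flank peaks, 31.3% (28.0 to 34.8) and 28.0% (25.2 to 31.1) overlapped a transcript of another gene named in the lists, against 16.3% (14.2 to 18.6) and 15.8% (13.9 to 17.9) of the downstream ones. A neighbour on the same strand as the gene of the peak was overlapped by 17.9% and 15.7% of upstream but 2.71% and 2.71% of downstream flank peaks, whereas a neighbour on the opposite strand was overlapped by 14.6% and 13.3% upstream and 13.9% and 13.1% downstream.

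Flank peaks were narrower than peaks over the TSS and had close to the same signal per bp as other peaks. The median width was 4580 bp (95% interval of the median, 4505 to 4659) in fl/fl and 3388 bp (3336 to 3450) in ΔIE, against 5101 bp (5027 to 5173) and 3757 bp (3704 to 3812) for peaks over the TSS and 4581 bp and 3397 bp for peaks 3 to 10 kb away. Flank peaks thus had the width of peaks farther out. The median signal per bp was 6.35 (6.28 to 6.41) in fl/fl and 6.50 (6.43 to 6.56) in ΔIE, and that of all peaks 6.14 and 6.32. Upstream and downstream flank peaks differed little, at 6.24 (6.17 to 6.34) and 6.41 (6.33 to 6.50) in fl/fl and at 6.52 (6.40 to 6.59) and 6.48 (6.39 to 6.59) in ΔIE. The middle 50% of the flank peaks lay between 5.59 and 7.16 per bp in fl/fl and between 5.70 and 7.39 in ΔIE.

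A few flank peaks stood far above these levels. The highest in both libraries was upstream of *LOC118568479* on the unplaced scaffold MSCHRUN_CTG24, with 102 per bp in fl/fl and 95.2 in ΔIE, which was 16.6 and 15.1 times the median of the list. The other peak on this scaffold, outside the flank, was high as well, with 50.8 per bp in fl/fl and 40.4 in ΔIE. *Smok2a*, a sperm motility kinase, followed among peaks found in both, with 12.2 and 13.5 per bp over 7983 and 7924 bp. *Duxbl1*, a double homeobox gene, had 11.2 per bp in fl/fl and 8.32 in ΔIE, *Gm7898* had 9.42 and 11.6, and *Gm52872* 9.66 and 9.17. These are the 5 genes with the highest signal per bp among overlapping flank peaks at a common TSS, ranked by the lower value of each pair. Among the other peaks, the highest downstream values were 15.6 per bp at *Rassf7*, a RAS association domain gene, in fl/fl, and 13.6 at *Prpf31*, a splicing factor, in ΔIE. The highest upstream values were 22.9 at *Gm40586* in fl/fl and 13.7 at *Pisd-ps3*, on another scaffold, in ΔIE. Since each list has a lowest summed signal, a narrow peak is listed only with a high value per bp. The peaks of *Rassf7* and *Gm40586* were 1858 and 1221 bp wide, and the part of width in this ranking was not tested. The widest flank peaks began beside *Cyp26b1*, which breaks down retinoic acid, with 22918 bp, *Grm2* with 20999 bp and *Gm39269* with 20781 bp in fl/fl, and beside *Dio3os* with 16144 bp, *Ccdc188* with 13359 bp and *Polrmt*, the mitochondrial RNA polymerase, with 12990 bp in ΔIE. Each of these 6 wide peaks overlapped at least 1 peak of the other library.

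Most flank peaks of one library had no counterpart in the other. In fl/fl 1094 of 1779 had no overlapping ΔIE peak of any class, or 61.5% (59.2 to 63.7), beside 65.9% over the whole list. In ΔIE 1371 of 2193 had no overlapping fl/fl peak, or 62.5% (60.5 to 64.5), beside 69.3% over the whole list. The share with a counterpart was therefore 38.5% (36.3 to 40.8) and 37.5% (35.5 to 39.5), against 33.6% (33.0 to 34.3) and 30.0% (29.4 to 30.6) among peaks outside the flank. Peaks nearer the TSS were shared at least as often, with 42.2% (40.5 to 43.8) and 38.3% (36.5 to 40.1) of those over the TSS and 41.2% (38.4 to 44.1) and 39.9% (37.4 to 42.4) of those within 1 kb but not over it, so the higher share was not particular to the flank. Downstream flank peaks had a counterpart in 40.4% (37.5 to 43.4) and 40.6% (37.9 to 43.3), and upstream ones in 35.6% (32.2 to 39.2) and 33.0% (30.0 to 36.2). The 2 sides did not overlap in their intervals in ΔIE and did in fl/fl.

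Strong flank peaks were shared more often than weak ones. Across bins of 25% of the flank peaks, from the lowest to the highest summed signal, the shared share went through 21.6%, 32.1%, 38.3% and 62.0% (57.4 to 66.4) in fl/fl and through 24.4%, 31.9%, 35.8% and 57.8% (53.7 to 61.9) in ΔIE. The interval of the strongest 25% did not reach those of the other bins in either library. Width moved with sharing as well, with 59.1% (54.5 to 63.6) of the widest 25% shared in fl/fl and 49.1% (44.9 to 53.3) in ΔIE, against 29.0% and 29.1% of the narrowest, and its part in the result was not tested. A counterpart that overlapped at least 50% of both peaks was found for 17.9% (16.2 to 19.8) and 16.1% (14.6 to 17.6).

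**Figure D3:**
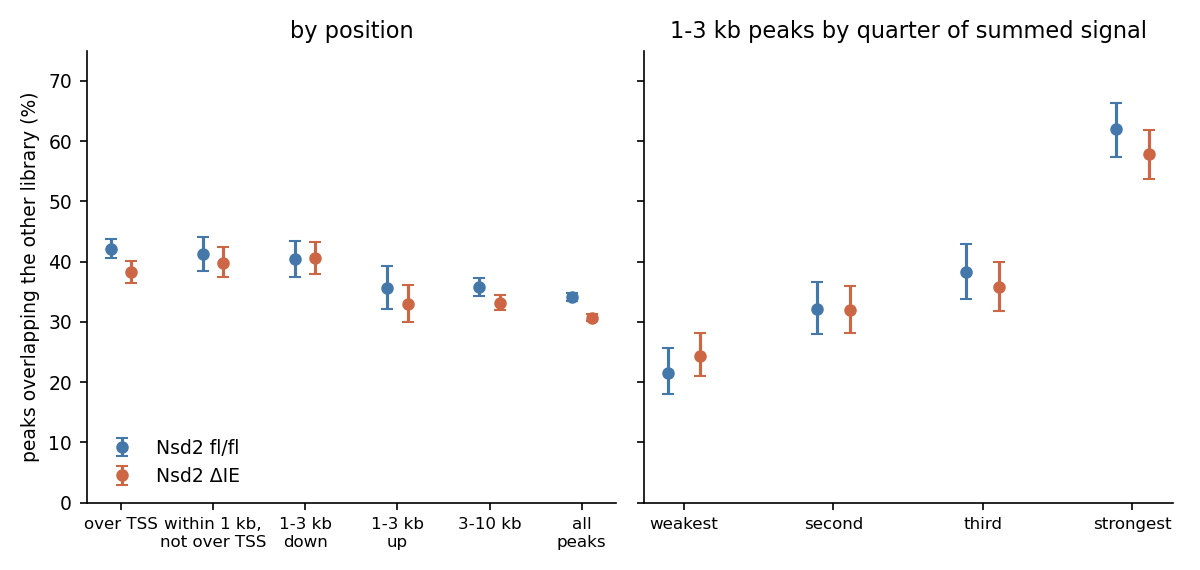
Share of peaks that overlap a peak of the other library by at least 1 bp (%, y axis) by position relative to the TSS (left) and, for the 1 to 3 kb flank, by bins of 25% of the peaks in order of summed signal (right), with 95% Wilson intervals. Downstream flank peaks are shared at 40.4% and 40.6%, and the strongest 25% at 62.0% and 57.8%.

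Where a flank peak had a counterpart, its class often differed. The 685 shared fl/fl flank peaks made 756 pairs with ΔIE peaks, of which 234 were with a peak within 1 kb of a TSS, 234 with a flank peak, 104 with an exon, 71 with an intron and 47 with a 3′ UTR class. The 822 shared ΔIE flank peaks made 847 pairs, of which 450 were with a peak within 1 kb and 234 with a flank peak. A ΔIE flank peak was thus met by a fl/fl peak at the promoter in 53.1% (49.8 to 56.5) of its pairs, and the reverse in 31.0% (27.8 to 34.3). The whole fl/fl list also held more peaks within 1 kb of a TSS, 4643 of 19976, against 4357 of 23518 in ΔIE. Peaks of the fl/fl list were the wider, as the medians above show. The part of width and of these list totals in the pair counts was not tested.

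Both edges could be set side by side in pairs annotated to the same TSS. In 326 such pairs the fl/fl peak lay within 1 kb of the TSS and the ΔIE peak in the flank, and in 189 pairs it was the reverse. In the 326 pairs the near edge lay at the median 0 bp from the TSS in fl/fl, with 203 peaks over the TSS, and 1781 bp away in ΔIE, while the far edge lay at 5136 and 5328 bp. The far edge was closer to the TSS in ΔIE in 157 of the 326 pairs, or 48.2%. In the 189 reverse pairs the near edge lay at 1784 bp in fl/fl and 85 bp in ΔIE, and the far edge at 6864 and 4077 bp, closer in ΔIE in 162 of 189, or 85.7%. The classes set the order of the near edges, and since the far edge is the near edge plus the width, they bear on the far edges too, so the values of these pairs are a description only. In the 212 pairs with a flank peak in both, 141 downstream and 71 upstream, the near edges lay at 1790 and 2033 bp and the far edges at 6630 and 5611 bp, with the far edge closer in ΔIE in 149, or 70.3%. Among all 1145 pairs with a flank peak and a common TSS, the ΔIE peak was the narrower in 879, or 76.8%, beside 74.9% of the 7465 overlapping pairs of the whole lists, so that the flank pairs stood near the background.

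**Figure D4:**
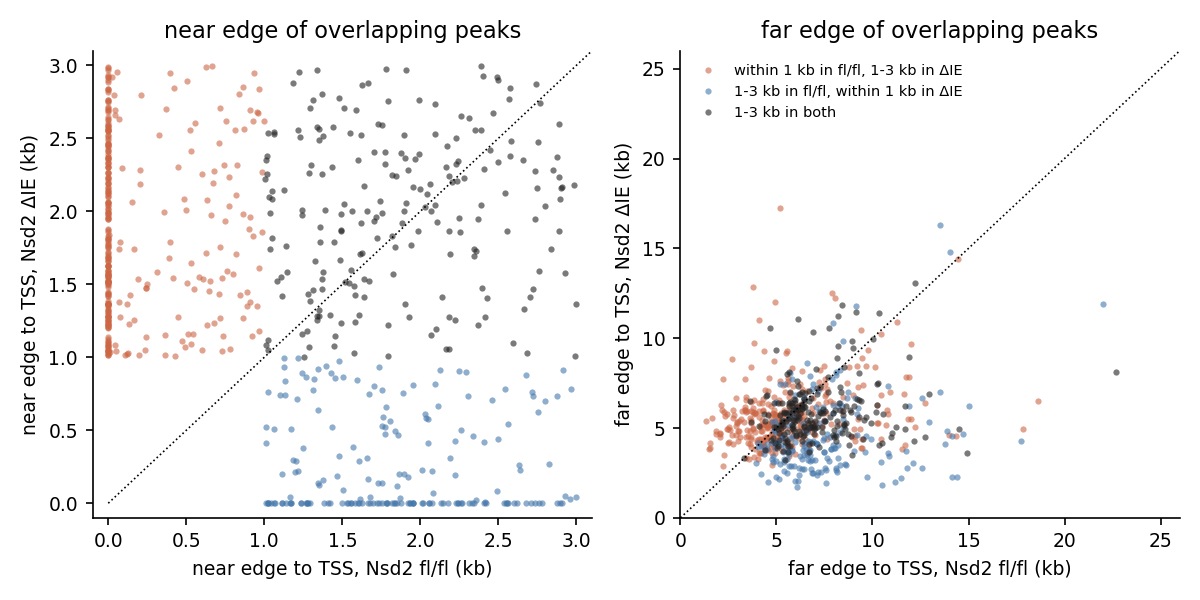
Distance of the near edge (left) and the far edge (right) from the TSS (kb) in fl/fl (x axis) and ΔIE (y axis) for overlapping peaks annotated to the same TSS, coloured by whether the peak is in the flank in both libraries (212 pairs) or within 1 kb in one of them (326 and 189 pairs), with equality as a dotted line. The blocks of the left panel follow from the class limits, while most far edges of pairs that are flank peaks in both lie below the line.

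Some TSSs had a flank peak on each side. There were 16 in fl/fl, with a gap between the near edges of 2435 to 5483 bp and a median of 3924.5 bp, and 29 in ΔIE, with a gap of 2219 to 5469 bp and a median of 3710 bp. A peak of the other library covered 0 of the 16 and 7 of the 29. *Slc4a1*, the band 3 anion exchanger, was so bracketed in both libraries, with near edges 1144 bp upstream and 1291 bp downstream in fl/fl and 1583 and 1385 bp in ΔIE. The microRNA gene *Mir711* was the other one, with 1540 and 2227 bp in fl/fl and 1506 and 2327 bp in ΔIE. Others were *Gna11*, a G protein subunit, and *Chac1*, a glutathione-degrading gene of the unfolded protein response, in fl/fl. *Slc25a1*, the mitochondrial citrate carrier, and *Agpat3*, an acyltransferase of phospholipid synthesis, were among those of ΔIE, and the *Slc25a1* TSS was under a fl/fl peak. These 6 were named after their values were seen.

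The flank peaks lay at 1724 genes in fl/fl and 2096 in ΔIE, or 13.8% and 15.4% of all genes with a peak in that list. Of these, 316 were in both, which was 18.3% of the fl/fl and 15.1% of the ΔIE genes, and at 209 of the 316 the flank peaks overlapped at a common TSS. A peak of any class in the other library was found at 67.4% of the fl/fl and 63.1% of the ΔIE genes, near the 63.2% and 57.9% over all genes with a peak. For 956 genes in fl/fl and 1008 in ΔIE, or 55.5% (53.1 to 57.8) and 48.1% (46.0 to 50.2), the flank peak was the only class of peak. *Nsd2* itself and *Ern1*, the ER stress sensor kinase IRE1α, had no flank peak in either library. *Nsd2* had 1 peak, over its TSS in ΔIE, with 4.79 per bp over 3766 bp, and *Ern1* had 1 peak, 34226 bp downstream of its TSS in fl/fl, with 5.13 per bp over 4774 bp.

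Across the 9 gene lists used to describe pathways of this tissue, 30 of 201 genes with a peak had a flank peak in fl/fl, or 14.9% (10.7 to 20.5), and 50 of 226 in ΔIE, or 22.1% (17.2 to 28.0), beside the 13.8% and 15.4% of all genes. The share over all genes includes non-coding ones. Among protein-coding genes with a peak, 1087 of 6765 had a flank peak in fl/fl and 1316 of 7207 in ΔIE. These are higher shares than over all genes, and the intervals of the 9 lists together held them. The lists are small, and the interval of each is wide. The next paragraphs take them by role.

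Among ER stress genes, 2 of 11 with a peak had a flank peak in fl/fl and 4 of 13 in ΔIE, with no gene in both. The shares were 18.2% (5.14 to 47.7) and 30.8% (12.7 to 57.6). Their intervals held the 13.8% and 15.4% of all genes with a peak. In fl/fl the genes were *Atf6b*, a membrane-bound transcription factor of the unfolded protein response, with 5.74 per bp from 1265 bp downstream, and *Hyou1*, an ER chaperone, with 6.66 per bp from 1264 bp downstream. In ΔIE they were *Creb3l2* and *Creb3l3*, factors cleaved in the Golgi, with 5.35 and 7.18 per bp from 1884 and 1747 bp downstream, and *Derl1* and *Derl3*, of ER-associated degradation, with 11.6 and 6.58 per bp from 1717 and 1561 bp upstream. The *Derl1* peak was the only one of the 6 genes above 8 per bp, and it was 1520 bp wide with no overlapping peak in fl/fl. Its summed signal of 17663 was near the lowest of the ΔIE list, 16571. A peak this narrow is listed only with a high signal per bp, so its value does not set it apart. At *Hyou1* a ΔIE peak overlapped but began 3227 bp away, beyond the flank, with 8.57 per bp.

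Among genes of the JNK and MAP kinase cascade, 3 of 23 had a flank peak in fl/fl and 7 of 25 in ΔIE. These were 13.0% (4.54 to 32.1) and 28% (14.3 to 47.6), and the intervals held the 13.8% and 15.4% of all genes with a peak. *Mapk8ip2* had a flank peak in both, at chr15:89339122-89346209 with 6.15 per bp in fl/fl and at chr15:89339195-89342376 with 6.18 in ΔIE. The near edges, 1008 and 1081 bp from the TSS, lay close together, and the far edges were at 8095 and 4262 bp. Another ΔIE peak, of the 3′ UTR class, overlapped the same fl/fl peak and began 6606 bp from the TSS, with 7.16 per bp. The far edge of the ΔIE flank peak is thus not the end of the ΔIE signal there. The other fl/fl genes were *Map3k14*, the NF-κB inducing kinase, and *Mapk14*, the p38α kinase, with 5.24 and 7.29 per bp. The other ΔIE genes were the kinases *Map2k7*, *Map3k10*, *Map3k11* and *Mapk12*, with 6.71, 8.45, 7.14 and 5.87 per bp, and the AP-1 members *Fosl1* and *Fosl2*, with 6.78 and 6.53. *Map2k7*, the kinase directly above JNK, had its peak 1013 bp upstream with no fl/fl peak over it. The peaks of *Map3k10*, *Fosl1* and *Fosl2* overlapped no fl/fl peak either. Those of *Map3k11* and *Mapk12* overlapped fl/fl peaks within 1 kb of the TSS of *Mir6987* and *Mapk11*.

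Genes of fatty acid and cholesterol metabolism had a flank peak in 6 of 28 in fl/fl and 6 of 29 in ΔIE. The shares were 21.4% (10.2 to 39.5) and 20.7% (9.85 to 38.4), with intervals that held the 13.8% and 15.4% of all genes with a peak. *Fasn*, the fatty acid synthase, had a flank peak in both. It lay at chr11:120706975-120713879 with 8.48 per bp in fl/fl and at chr11:120703536-120713501 with 7.33 in ΔIE. The single flank peak was the wider in ΔIE, but that ΔIE peak also overlapped another fl/fl peak. This exon peak began 10929 bp downstream of the TSS, with 8.20 per bp over 4346 bp. The remaining fl/fl genes were *Acsl1*, *Fabp1*, *Insig1*, *Scarb1* and *Srebf1*, from 6.66 per bp at *Fabp1* to 8.18 at *Acsl1*, and those of ΔIE were *Acacb*, *Dgat1*, *Lpin1*, *Lpin2* and *Plin3*, from 5.54 at *Plin3* to 7.33 at *Acacb*. *Srebf1* and *Insig1*, which drive and restrain sterol-regulated transcription, both had a flank peak in fl/fl, from 1101 bp downstream and 2643 bp upstream. *Insig1* had another fl/fl peak over its TSS, with 6.20 per bp. At *Srebf1* a ΔIE peak of 7834 bp covered the TSS of the fl/fl flank peak. At *Lpin2*, a phosphatidate phosphatase, the fl/fl peak lay over the TSS and the ΔIE peak began 2714 bp downstream.

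Nuclear receptors and their coregulators had a flank peak in 8 of 28 in fl/fl, or 28.6% (15.3 to 47.1), and in 10 of 31 in ΔIE, or 32.3% (18.6 to 49.9). These shares were above the 13.8% and 15.4% of all genes in both libraries. The fl/fl interval held the higher share over protein-coding genes, and the ΔIE interval began just above it. *Nr4a1*, an immediate early orphan receptor, had 6.80 per bp over 7935 bp in fl/fl and 5.92 over 3730 bp in ΔIE, both downstream of the same TSS. *Rarg*, a retinoic acid receptor, had 5.71 per bp from 2253 bp and 7.34 from 1855 bp upstream. *Esrrb* and *Rxra* had flank peaks in both libraries as well, but at different TSSs or, for 1 pair at *Rxra*, on opposite sides of the same TSS. The rest included *Esr1*, *Ncoa2* and *Rarb* in fl/fl and *Nr1d1*, *Nr4a3*, *Ppard*, *Ppargc1a*, *Rara* and *Thrb* in ΔIE. The downstream peak of *Ppard*, a receptor for fatty acids, had 9.42 per bp in ΔIE, and *Rarb* had 4.59 in fl/fl. *Esrrb* had 5.49 per bp in fl/fl and 4.30 in ΔIE.

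**Figure D5:**
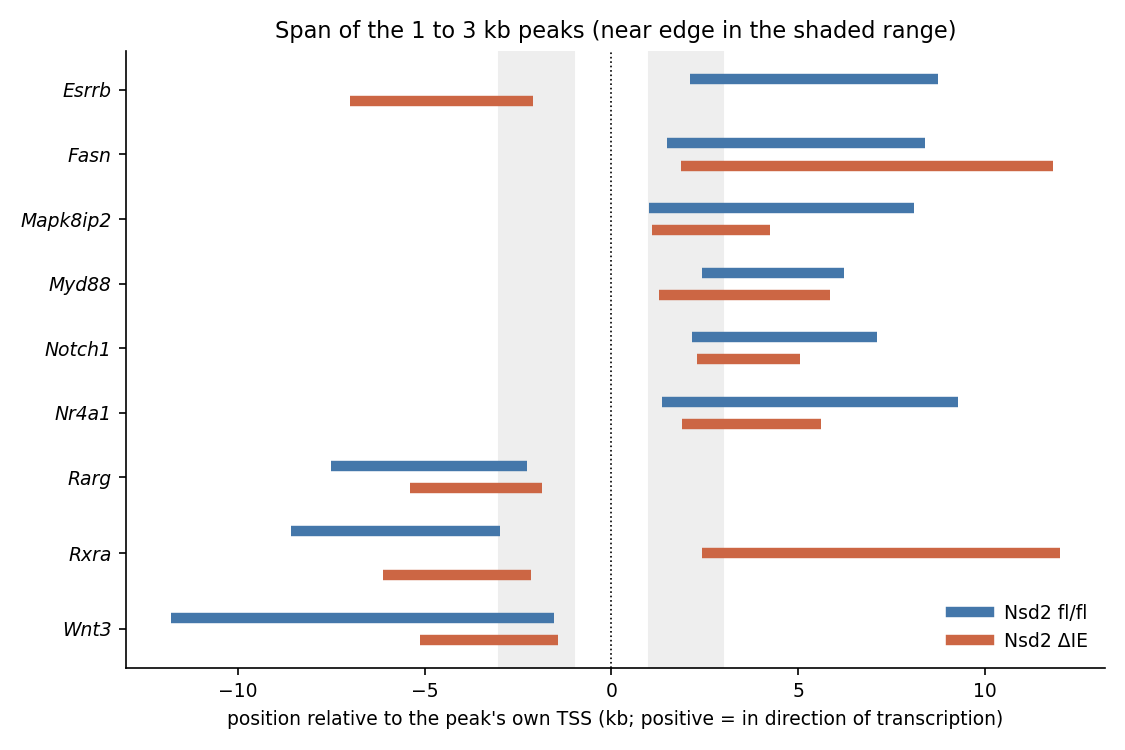
Span of each flank peak (bars) relative to the TSS it is annotated to (x axis, kb, positive in the direction of transcription) for the 9 listed genes with a flank peak in both libraries, one row of bars per gene and one colour per library, with the 1 to 3 kb range shaded. At *Fasn*, *Mapk8ip2*, *Myd88*, *Notch1*, *Nr4a1* and *Rarg* the bars of both libraries overlap at the same TSS, while the bars of *Esrrb* and *Wnt3* belong to different TSSs and those of *Rxra* to different TSSs or to opposite sides of one.

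Wnt and Notch genes had a flank peak in 3 of 39 in fl/fl, or 7.69% (2.65 to 20.3), and in 13 of 44 in ΔIE, or 29.5% (18.2 to 44.2), beside 13.8% and 15.4% of all genes. Both intervals held the higher share over protein-coding genes, which in ΔIE lay just above the lower end. *Notch1* had a flank peak in both, with 4.92 per bp from 2164 to 7105 bp in fl/fl and 7.28 per bp from 2301 to 5064 bp in ΔIE. Another ΔIE peak, in an intron from 6907 bp with 6.09 per bp, overlapped the far end of the fl/fl peak. *Wnt3*, a ligand of the crypt base, had a flank peak in both at different TSSs, with 6.34 and 5.95 per bp. *Notch3* was the remaining fl/fl gene. In ΔIE the ligands *Wnt4*, *Wnt7b*, *Dll1* and *Jag2* had 7.11, 7.24, 6.79 and 6.55 per bp. The receptor *Lgr6* had 5.86, *Rnf43*, a ligase that removes Wnt receptors, had 5.29, *Dvl2*, which relays the Wnt signal, 6.23, and *Apc*, of the β-catenin destruction complex, 5.88. The nuclear members *Tcf7*, *Hey1* and *Maml2* had 7.55, 6.04 and 6.42.

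Cytokine, Toll-like receptor and NF-κB genes had a flank peak in 4 of 21 in fl/fl and 4 of 30 in ΔIE. The shares were 19.0% (7.67 to 40.0) and 13.3% (5.31 to 29.7), with intervals that held the 13.8% and 15.4% of all genes with a peak. *Myd88* had a flank peak in both, with 6.27 per bp from 2415 bp and 5.49 per bp from 1278 bp downstream, and both reached past the end of this short gene. *Il1r2*, *Il22ra1* and *Tnfaip2* were the other fl/fl genes. *Il22ra1*, the epithelial receptor of interleukin 22, had a peak of 13107 bp from 1601 bp downstream, and the ΔIE peak at the same TSS lay over the start and ended 4650 bp from it. *Ccl28*, an epithelial chemokine, *Relb* and *Tnfrsf1b* were those of ΔIE, with 8.0 and 7.16 per bp at *Ccl28* and *Relb* and 5.72 and 8.69 at the 2 peaks of *Tnfrsf1b*.

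Genes of the epithelial barrier and identity had a flank peak at shares whose intervals all held the 13.8% or 15.4% of all genes with a peak. In the list of tight junction, adhesion and mucus genes there were 2 of 21 in fl/fl, among them *Cldn1* with 4.38 per bp, and 2 of 23 in ΔIE, *Muc2* and *Mylk*, with 7.0 and 6.14. *Cldn1*, a claudin of the tight junction, had no ΔIE peak overlapping this one. A ΔIE peak with 5.32 per bp did lie at the gene, with its near edge 32 bp downstream of the TSS. Intestinal transcription factors gave 1 of 20, *Isx*, with 6.55 per bp, in fl/fl, and 3 of 20, *Foxa1*, *Gata5* and *Spdef*, with 5.69, 4.78 and 7.07, in ΔIE, all of them upstream. Writers, erasers and readers of H3K36 methylation gave 1 of 11 in fl/fl, the demethylase *Kdm4b* with 7.44 per bp, and 1 of 12 in ΔIE, *Brpf1* with 7.76.

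Among the marker genes, *Aqp8*, a water channel of surface colonocytes, had a flank peak in both libraries on opposite sides of its TSS, with 4.87 per bp from 2402 bp upstream in fl/fl and 5.84 per bp from 2399 bp downstream in ΔIE. Immune markers gave 0 of 4 with a peak in fl/fl, which allows a share of up to 49.0% by the Wilson interval, and 3 of 5 in ΔIE, among them *Cd8a* and *Csf1r*, with 4.86 and 7.14 per bp. Stromal, muscle and nerve markers gave 1 of 10, *Pdgfrb*, in fl/fl and 4 of 10, *Cnn1*, *Pdgfrb*, *Ret* and *S100b*, in ΔIE, with 9.33 per bp at *Cnn1*, 6.20 at *Ret* and 5.52 at *S100b*. These markers belong to cells that Villin-Cre does not reach, and the part of cell composition in the counts was not tested.

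At 10 listed or marker genes a fl/fl peak within 1 kb of the TSS overlapped a ΔIE flank peak at the same TSS, and at 2 genes it was the reverse, *Il22ra1* and *Wnt3*. At *Wnt3* another fl/fl peak, with 7.44 per bp, lay over that same TSS. Among the 10 were *Cnn1*, *Lpin2*, *Muc2*, *Pdgfrb*, *Rara*, *Rxra*, *Tcf7*, *Thrb* and *Wnt7b*, beside the 326 and 189 pairs of the whole lists. *Muc2*, the main secreted mucin of goblet cells, had a fl/fl peak of 9018 bp over the TSS that ended 3754 bp downstream, with 7.11 per bp, and a ΔIE peak from 1813 to 6090 bp, with 7.0 per bp. *Tcf7*, a transcription factor of the Wnt pathway, had 12686 bp over the TSS in fl/fl and a peak from 1083 to 6897 bp in ΔIE, with 7.10 and 7.55 per bp, while another ΔIE peak lay upstream with its near edge 84 bp from the TSS. *Rara*, a retinoic acid receptor, had 13743 bp over the TSS in fl/fl and a peak from 1561 to 5523 bp in ΔIE, with 6.43 and 8.0 per bp. The signal per bp of the ΔIE flank peak was above that of the fl/fl peak at *Tcf7* and *Rara* and slightly below it at *Muc2*.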

How the data were processed

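H3K36me2 CUT&Tag of mouse colon was deposited as 1 annotated peak list per library. Per the labels, the submitters' processing notes name Bowtie2, deepTools, SEACR and ChIPseeker, without versions, and hg38, which is a human build. The authors' caller summed the signal over each region into an integer, with no stated correction for depth, so depth is unknown. Widths and distances are deposited in bp. Signal per bp is the summed signal over the width. Of 3587 transcripts beside flank peaks matched by symbol to the GRCm38.p6 gene table, 1545 had its gene length and 32 of these its start, so its positions were not used for peaks.

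Analyses used Python 3.11.15, pandas 2.3.3, numpy 2.4.6 and scipy 1.17.1, and figures matplotlib 3.10.9. Peaks overlapping by at least 1 bp were shared. Shares carry 95% Wilson intervals and medians binomial order-statistic intervals, both for counting error only. Functions were tested on simulated data. Members and gene lists were chosen with earlier results of these data known. Genes were named as the 5 upstream and 5 downstream flank peaks with the highest signal per bp and the 3 widest per library, the 5 highest pairs, peaks at the limits, all list and marker genes with a flank peak, and *Nsd2* and *Ern1*, of which the text prints part. Some of these genes are not reported here. The GO and pathway columns of the lists were not used.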

Additional observations from a re-analysis of the deposited data

How the results depend on the processing

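Of 104 values recomputed under 8 other settings, 66 stayed within their 95% interval or, for numbers, within 1.5 times, and 38 moved, none of them with a test. The number of flank peaks was 928 in fl/fl and 1151 in ΔIE in the stronger 50% of each list, 946 and 1155 for the 1 to 2 kb class alone, and 784 and 956 at curated transcripts. The number of their genes was then 911, 930 and 771 in fl/fl, 1115, 1124 and 935 in ΔIE, and 121, 107 and 129 in both, by the construction of these settings. The flank share was 4.74% and 4.91% for the 1 to 2 kb class, 9.94% and 10.4% at curated transcripts, and 9.79% in the stronger 50% of ΔIE. The downstream share was 68.0% and 68.5% at curated transcripts and 61.3% in the stronger 50% of ΔIE.

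The shared share was 35.6% and 34.3% in the stronger 50% of each list, 35.6% and 39.8% with lists of equal size, 40.9% at curated transcripts in fl/fl, 17.9% and 16.1% with a reciprocal overlap of 50%, and 42.9% and 41.9% where a gap of up to 1 kb counted as shared. The median width was 5498 and 4042 bp in the stronger 50%, and 3536 bp in ΔIE with lists of equal size. The median signal per bp was 6.48 and 6.61 in the stronger 50%, and 6.47 at curated transcripts in fl/fl. The cause of these moves beyond the construction of a setting was not tested. Autosomes alone, and merging of peaks within 1 kb, moved no value.

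There was no replicate to leave out, and no difference between genotypes carries an error. No paired analysis was possible because the result comes from no test, with a single library on each side. Depth, antibody performance and calling threshold of each library cannot be told apart from genotype.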

Other observations

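The lists give a transcription factor family for some genes, and these flank genes were looked at after their values were seen. Such genes made 4.18% (95% Wilson interval, 3.33 to 5.23) of the fl/fl and 5.20% (4.33 to 6.24) of the ΔIE flank genes, beside 3.79% (3.47 to 4.14) and 3.8% (3.49 to 4.14) of all genes with a peak. In fl/fl there were 72 such genes beside 1087 protein-coding flank genes, and 472 beside 6765 protein-coding genes with a peak, so the flank was not higher. The same counts in ΔIE were 109 beside 1316 and 517 beside 7207. Among bZIP genes, 3 of 22 with a peak had a flank peak in fl/fl, *Atf6b*, *Batf* and *Nrl*, or 13.6% (4.75 to 33.3), and 10 of 19 in ΔIE, or 52.6% (31.7 to 72.7). The share over all genes with a peak was 13.8% in fl/fl and 15.4% in ΔIE, so the fl/fl count was at the background. The ΔIE members were *Atf5*, *Bach1*, *Creb3*, *Creb3l2*, *Creb3l3*, *Fosl1*, *Fosl2*, *Hlf*, *Mafa* and *Nfe2l1*, with signal per bp from 5.13 at *Mafa* to 7.28 at *Hlf*. No bZIP gene had a flank peak in both libraries, and 3 of the 10 ΔIE peaks overlapped a fl/fl peak. In the GATA zinc finger family, 5 of 9 genes with a peak had a flank peak in ΔIE, *Gata2*, *Gata5*, *Mta2*, *Mta3* and *Rere*, with 4.78 to 7.18 per bp, and 0 of 5 in fl/fl. Homeobox genes had a flank peak in 11 of 70 in fl/fl, or 15.7%, and 10 of 65 in ΔIE, or 15.4%, near the background.

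Chromosome X held 1 peak in the whole fl/fl list, a flank peak, and 5 peaks in the ΔIE list, none in the flank.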
